A study of Mus musculus with 4 samples.

Results

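Messenger RNA of 8 genes of the mitogen-activated protein (MAP) kinase family was examined in mouse blood, namely the ERK genes Mapk3, Mapk6 and Mapk7, the JNK genes Mapk8 and Mapk9, and the p38 genes Mapk11, Mapk13 and Mapk14. The members were chosen by gene symbol and by having a value in every library, and all 8 were found among 17823 genes with values. The study asked whether naringenin (Nar), a flavonoid isolated from the berry plant *Ribes meyeri*, alters gene expression in the blood of aging C57BL/6 mice, which the labels call adult. Nar was given into the tail vein for 30 days, and control (Ctrl) mice received phosphate-buffered saline (PBS) in equal volume. RNA from 4 libraries was sequenced, Ctrl 1, Ctrl 3, Nar 1 and Nar 3, which gives 2 libraries a group. The labels carry no genotype other than the strain and do not state whether a library came from 1 mouse or from a pool, so the p-values measure only the spread between these libraries, which may be technical.

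MAP kinases are the last step of a 3-tier relay in which a MAP kinase kinase kinase activates a MAP kinase kinase, which in turn activates the MAP kinase. ERKs are known mainly for relaying growth factor and antigen receptor signals, while JNKs and p38 kinases respond to stress and to inflammatory cytokines such as TNF-α. In blood, p38 kinases serve neutrophils and monocytes in cytokine production, migration and degranulation. These enzymes are switched on by phosphorylation, so a transcript level says how much of the message was present and nothing of kinase activity.

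The classes differ in the activation loop, the stretch of the kinase that is phosphorylated. Its core is threonine-glutamate-tyrosine in the classical ERKs and in ERK5, threonine-proline-tyrosine in JNKs, and threonine-glycine-tyrosine in p38 kinases. The atypical kinase ERK3, encoded by Mapk6, has serine-glutamate-glycine there and lacks the tyrosine. The coding bases around that core are shown because they tell the JNK and p38 genes from the ERK genes Mapk3 and Mapk7. Mapk6 is counted with the ERK genes here although its core differs. They were read from GENCODE M21 transcripts (GRCm38), with the 3 core codons in capitals.
Mapk3: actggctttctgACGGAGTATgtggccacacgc
Mapk7: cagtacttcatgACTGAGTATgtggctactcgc
Mapk6: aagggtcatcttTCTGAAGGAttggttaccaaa
Mapk8: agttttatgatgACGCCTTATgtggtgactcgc
Mapk9: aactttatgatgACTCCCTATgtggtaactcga
Mapk11: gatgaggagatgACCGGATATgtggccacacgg
Mapk13: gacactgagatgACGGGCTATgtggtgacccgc
Mapk14: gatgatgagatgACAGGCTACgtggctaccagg
The core lies at codons 180 to 182 of all 3 p38 genes, 183 to 185 of both JNK genes and 203 to 205 of Mapk3. Over whole coding sequences, identity at aligned bases was 75.5% between Mapk8 and Mapk9, 70.7% between Mapk11 and Mapk14, and 65.1% between Mapk13 and Mapk14. Across the 28 pairs of members, the longest run of bases that both transcripts shared exactly was between 11 and 26 bases.

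Levels are given in FPKM, fragments counted per kilobase of transcript and relative to all that mapped. They can be compared between genes of a library, but between libraries only as shares of what mapped. Haemoglobin genes took 92.6% to 95.1% of the summed FPKM in Ctrl and 95.7% to 96.4% in Nar, and every other gene shares the remainder. The median log2 fold change of all 5339 genes tested was -1.07 with Nar, so a typical gene lay lower on this scale. It was -0.03 after median-of-ratios scaling, where the typical gene is made equal in all libraries. The changes below are to be read against that background. Because whole blood was sequenced, fewer cells of a type and less RNA per cell cannot be told apart.

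The 8 members covered a wide range of levels in Ctrl blood, from Mapk3, Mapk6 and Mapk14 at the top to the JNK gene Mapk8 at the bottom. Mapk3 encodes ERK1, a classical ERK, and averaged 17.8 ± 8.51 FPKM (SD, n = 2) in Ctrl, above 96.8% of all genes with values. Mapk6 averaged 12.045 ± 7.43 FPKM, and Mapk14, which encodes p38α, the main p38 kinase of most tissues, averaged 7.49 ± 0.785 FPKM. Mapk3 was the highest member in both Ctrl libraries, while Mapk6 lay below Mapk14 in Ctrl 1 and above it in Ctrl 3. Mapk13, which encodes p38δ, followed at 2.29 ± 1.22 FPKM, below Mapk14 and above Mapk9 in both Ctrl libraries.

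The other 4 members were scarce. Mapk9, which encodes JNK2, averaged 0.59 ± 0.0849 FPKM in Ctrl and Mapk7, which encodes the large kinase ERK5, averaged 0.37 ± 0.0849 FPKM. Mapk11, encoding p38β, averaged 0.29 ± 0.226 FPKM, and Mapk8, encoding JNK1, averaged 0.14 ± 0.0283 FPKM, near the middle of all genes (percentile 44.2). Mapk9 exceeded Mapk7 in both Ctrl libraries, and Mapk7 exceeded Mapk8 in both, whereas the values of Mapk11 overlapped those of Mapk7 and Mapk8. A mean of at least 0.5 FPKM over the 4 libraries was required for a test. Mapk3, Mapk6, Mapk13 and Mapk14 met it, while Mapk7, Mapk8, Mapk9 and Mapk11 did not and are described by their values.

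**Figure D1:**
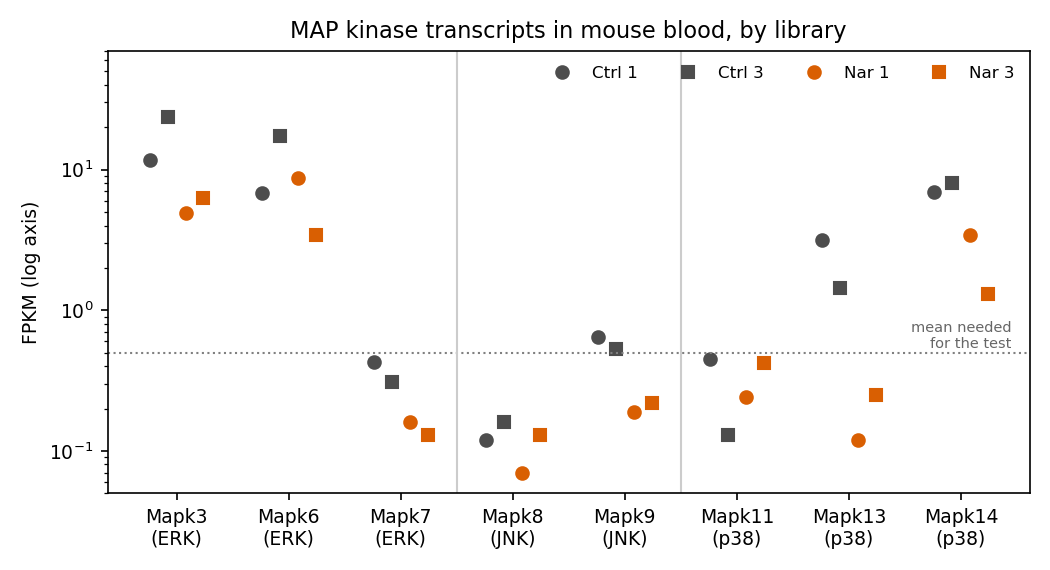
FPKM of each MAP kinase member (log axis) in each of the 4 libraries, with Ctrl in grey and Nar in orange, library 1 as circles and library 3 as squares; the dotted line marks the mean of 0.5 FPKM required for a test. Mapk3, Mapk7, Mapk9, Mapk13 and Mapk14 were lower in both Nar libraries than in both Ctrl libraries, and the groups overlapped for Mapk6, Mapk8 and Mapk11.

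Both Nar libraries lay below both Ctrl libraries for 5 of the 8 members, the groups overlapped for 3, and no member lay higher in both Nar libraries. Among all 16382 genes above 0 in any library, 52.7% lay lower in both Nar libraries and 2.78% higher, and among the 5339 tested genes 78.3% and 1.27%. Of the 4 members tested with limma, Mapk13, Mapk14 and Mapk3 passed at a Benjamini-Hochberg adjusted p of 0.05, which makes 3 members, all lower with Nar. At this threshold 39.8% of all tested genes passed, namely 39.6% that were lower and 0.187% that were higher.

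The members' count moved with the background under other settings. The same 3 members passed with a pseudocount of 1 or 0.01, with TPM and with limma without trend, where 34.3%, 38.6%, 38.4% and 33.5% of all tested genes passed. With haemoglobin genes removed, Mapk13 alone passed (5.35% of all genes), as it did without Nar 1 (4.85%) and without Nar 3 (3.99%). No member passed under median-of-ratios scaling (0.492% of all genes), or at a mean of at least 5 FPKM, where Mapk3 and Mapk6 were tested (10.8%). With a replicate block 2 passed, Mapk13 and Mapk14 (34%). With crossed numbers, a setting added after the data were seen, 4 passed (60.6%). Without Ctrl 1 or Ctrl 3, limma called 0 of 5339 genes, members included, while 2682 and 2133 were under 0.05 unadjusted.

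Among ERK genes, Mapk3 (chr7:126759626-126765816, GRCm38) was listed at 11.77 and 23.8 FPKM in Ctrl 1 and Ctrl 3 and at 4.88 and 6.23 FPKM in Nar 1 and Nar 3. Both Nar values lay below both Ctrl values, and the Ctrl libraries themselves differed by a factor of 2.02. The log2 fold change of log2(FPKM + 0.1), a scale that understates changes of low values, was -1.58 (standard error 0.528, limma adjusted p = 0.0433), which is -0.51 from the median of all tested genes. This call was near the threshold. It was lost with haemoglobin genes removed (log2 fold change -1.03, limma adjusted p = 0.173) and with a replicate block (limma adjusted p = 0.0978). Leaving out any 1 library also took it away, with log2 fold changes from -1.08 (without Ctrl 3) to -2.09 (without Ctrl 1). Under median-of-ratios scaling the log2 fold change was -0.49 (adjusted p = 0.836).

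Mapk6 (chr9:75386782-75410016) did not pass the test. It was listed at 6.79 and 17.3 FPKM in Ctrl 1 and Ctrl 3 and at 8.74 and 3.42 FPKM in Nar 1 and Nar 3. The highest value was that of Ctrl 3 and the lowest that of Nar 3, while Nar 1 lay above Ctrl 1. The log2 fold change was -0.97 (standard error 0.635, limma adjusted p = 0.206), close to the median of all genes, and it was 0.12 under median-of-ratios scaling.

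Mapk7 (chr11:61488812-61494267) was listed at 0.43 and 0.31 FPKM in Ctrl and at 0.16 and 0.13 FPKM in Nar. Both Nar values were lower, by a ratio of means of 2.55, and the log2 fold change was -0.93. With no filter on low values, where limma called 0 of 16382 genes and 4978 were under 0.05 unadjusted, its adjusted p was 0.141.

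The JNK genes were too low to be tested. Mapk9 (chr11:49846728-49886421) was listed at 0.65 and 0.53 FPKM in Ctrl and at 0.19 and 0.22 FPKM in Nar. The groups did not overlap and the libraries of each group lay close together, with a log2 fold change of -1.17. The median was -1.07 over the tested genes, which leave out Mapk9, and -0.57 with no filter, where Mapk9 is included. Mapk8 (chr14:33377898-33447353) was listed at 0.12 and 0.16 FPKM in Ctrl and at 0.07 and 0.13 FPKM in Nar, so that Nar 3 lay within the Ctrl range. Its log2 fold change of -0.27 rests on values only a few rounding steps apart, since the deposited values carry 2 decimals. With no filter, the limma adjusted p was 0.113 for Mapk9 and 0.511 for Mapk8.

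The p38 genes held both the steepest fall and the single member whose mean was higher with Nar. Mapk13 was listed at 3.15 and 1.43 FPKM in Ctrl 1 and Ctrl 3 and at 0.12 and 0.25 FPKM in Nar 1 and Nar 3. The ratio of the means was 12.4, far larger than the factor of 2.20 between the Ctrl libraries or of 2.08 between the Nar libraries. The log2 fold change was -3.01 (standard error 0.462, limma adjusted p = 0.00553), lower than that of all but 1.55% of tested genes.

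Mapk13 passed the filter on low values only through its Ctrl libraries. Its call held without Nar 1 and without Nar 3, with log2 fold changes of -2.67 and -3.34. The call was lost without Ctrl 1 or Ctrl 3, as was every other call, with log2 fold changes of -2.46 and -3.55. It was also lost under median-of-ratios scaling, with a log2 fold change of -2.10 (adjusted p = 0.112), and with no filter (adjusted p = 0.113). With a pseudocount of 1 the log2 fold change was -1.42 (adjusted p = 0.0199).

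Mapk14 was listed at 6.93 and 8.04 FPKM in Ctrl 1 and Ctrl 3 and at 3.45 and 1.31 FPKM in Nar 1 and Nar 3. The Ctrl libraries lay close together and the Nar libraries apart, by a factor of 2.63. The log2 fold change was -1.76 (standard error 0.523, limma adjusted p = 0.0326), or -0.69 from the median of all tested genes. Leaving out any 1 library ended the call, with log2 fold changes from -1.09 (without Nar 3) to -2.42 (without Nar 1). Under median-of-ratios scaling the log2 fold change was -0.68 (adjusted p = 0.66).

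Mapk11 (chr15:89142482-89149606) was listed at 0.45 and 0.13 FPKM in Ctrl and at 0.24 and 0.42 FPKM in Nar. The highest and the lowest value were both from Ctrl libraries, and the log2 fold change of 0.24 was smaller than the spread between them. Its sign turned without Ctrl 3 (-0.39) and without Nar 3 (-0.06). In the order of levels, Mapk13 was the fourth member in both Ctrl libraries, whereas Mapk11 took the fourth place in both Nar libraries.

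**Figure D2:**
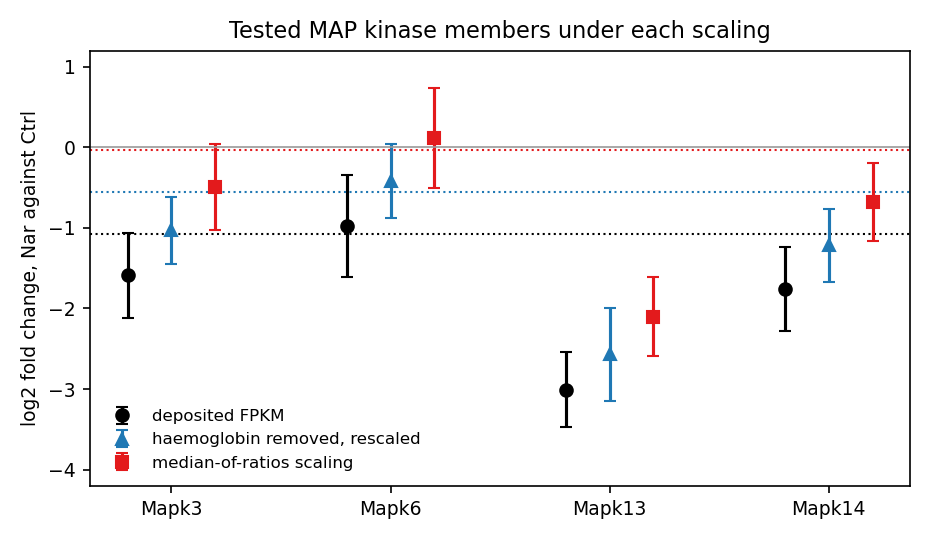
Log2 fold change of Nar against Ctrl (y axis) for the 4 tested members, on deposited FPKM (black circles), after haemoglobin removal and rescaling (blue triangles) and with median-of-ratios scaling (red squares); bars are limma standard errors and dotted lines in the same colours the median of all tested genes. Mapk13 lay furthest below the median of all genes under each scaling, at -3.01, -2.57 and -2.10, while Mapk6 lay near it.

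The ERK, JNK and p38 classes were then compared by their mean log2 fold changes and by their shares of the family's FPKM. Over all members, the mean log2 fold change was -1.51 for the 3 p38 genes, -1.16 for the 3 ERK genes and -0.72 for the 2 JNK genes. The p38 mean combines Mapk13 and Mapk14, which were lower with Nar, with Mapk11, which was not. The difference was -0.78 between p38 and JNK and -0.44 between ERK and JNK, and between p38 and ERK it was -0.34. Over the tested members alone, the p38 to ERK difference was -1.10, with -0.26 at a pseudocount of 1, -0.30 without Ctrl 1 and -1.91 without Ctrl 3. Leaving out 1 library moved the p38 to JNK difference between -1.14 (without Ctrl 3) and -0.43 (without Ctrl 1), and the ERK to JNK difference between -0.78 (without Nar 1) and -0.10 (without Nar 3). These differences are given without a test.

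As a share of the summed FPKM of the 8 members, ERK genes took 62.7% and 80.1% in Ctrl 1 and Ctrl 3, against 77.2% and 80.8% in Nar 1 and Nar 3. In the same order, p38 genes took 34.8%, 18.6%, 21.3% and 16.4%, and JNK genes 2.54%, 1.33%, 1.46% and 2.89%. The groups overlapped for all 3 classes, and Ctrl 1 stood apart from the other libraries by its larger p38 share. The Ctrl libraries held a sum of 30.3 and 51.7 FPKM and the Nar libraries 17.9 and 12.1 FPKM. Most of this sum is Mapk3, Mapk6 and Mapk14, and it lay lower in both Nar libraries, as did 78.3% of tested genes.

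**Figure D3:**
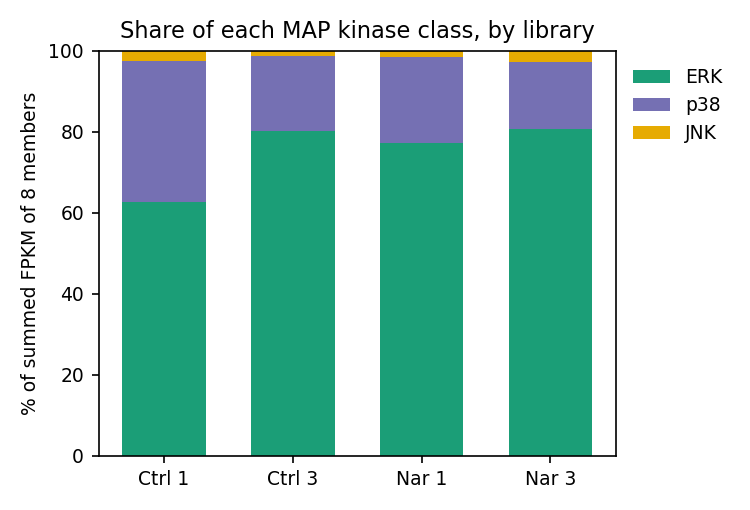
Share of the summed FPKM of the 8 members (y axis, percent) taken by ERK, p38 and JNK genes in each library (x axis). ERK genes took 62.7% to 80.8% and JNK genes under 3% in every library, with no share that separates Ctrl from Nar.

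The FPKM ratio of a pair of members within a library is the same however the library is scaled, and 2 such ratios were compared. The ratio of Mapk13 to Mapk14 was 0.455 and 0.178 in Ctrl 1 and Ctrl 3, and 0.0348 and 0.191 in Nar 1 and Nar 3. Nar 1 had the lowest ratio, but that of Nar 3 lay between those of the Ctrl libraries. The ratios of the groups thus overlapped, so the larger fall of Mapk13 was not separated from that of Mapk14. On the scale of log2(FPKM + 0.1), where the pseudocount lets scaling enter, the difference was -1.25, with -0.02 at a pseudocount of 1 and -1.73 at 0.01. An exact permutation test of the first gave a two-sided p = 0.67 (n = 2 against 2), but with so few libraries it could not have separated them. The ratio of Mapk14 to Mapk9 was 10.7 and 15.2 in Ctrl and 18.2 and 5.95 in Nar. Its log2 difference with the pseudocount of 0.1 was -0.58, with the same exact p, and it was -1.002 at a pseudocount of 1 and -0.33 at 0.01. The sign turned without Nar 3, to 0.15. With 2 libraries a group, this exact permutation test cannot go below p = 0.33, and adjustment over the 2 ratios leaves both at 0.67.

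Mapk14 and Mapk13 are neighbours on chromosome 17. Mapk14 lies at chr17:28691342-28748405 and Mapk13 at chr17:28769286-28778704 (GRCm38.p6, plus strand), with 20880 bases and no annotated gene between them. Their promoters are shown because these adjacent genes were both lower in both Nar libraries, as were 78.3% of tested genes. Each window holds 250 bases before and 50 after a RefSeq transcription start, with the letters GGGCGG (a GC box, the kind of element bound by Sp1) or CCGCCC, its reverse complement, in capitals.
Mapk14, chr17:28691092-28691391, plus strand: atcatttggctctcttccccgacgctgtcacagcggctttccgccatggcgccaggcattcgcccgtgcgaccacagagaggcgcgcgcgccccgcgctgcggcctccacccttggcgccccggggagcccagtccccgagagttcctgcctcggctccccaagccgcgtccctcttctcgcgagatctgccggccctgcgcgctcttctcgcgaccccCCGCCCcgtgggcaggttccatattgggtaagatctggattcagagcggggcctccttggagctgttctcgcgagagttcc
Mapk13, chr17:28769067-28769366, plus strand: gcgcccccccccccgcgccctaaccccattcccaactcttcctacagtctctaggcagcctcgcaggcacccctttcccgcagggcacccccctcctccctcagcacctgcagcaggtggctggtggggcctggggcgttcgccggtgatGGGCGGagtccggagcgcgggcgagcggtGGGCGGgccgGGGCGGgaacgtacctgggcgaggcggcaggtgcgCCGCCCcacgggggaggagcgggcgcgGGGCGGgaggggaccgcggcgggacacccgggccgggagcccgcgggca
The Mapk13 window holds 5 GC boxes and the Mapk14 window 1. Windows were matched for 7 of the 8 members, all but Mapk3, and 9 of their 11 windows hold a GC box on either strand, against 35.7% of 32851 windows of all genes. Windows of a gene can overlap, as both Mapk7 windows do almost entirely, and are not independent. The Mapk13 and Mapk14 windows shown hold 34 and 33 CpG dinucleotides, where the median over all windows is 7. No window of a member holds the letters TATAAA, found in 13.6% of all windows, CCGGAAG (8.86%) or TGACGTCA (1.79%), on either strand. GC boxes stood in windows of members lower in both Nar libraries and of Mapk6, Mapk8 and Mapk11, whose groups overlapped, with 7 in the first window of Mapk8, and were missing from the second windows of Mapk8 and Mapk14.

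Blood cell markers moved alongside some of the members. All 12 tested genes of 14 neutrophil markers were lower with Nar (limma adjusted p under 0.05), against 39.6% of all tested genes, and 2 of the 12 had passed the filter only through Ctrl. Their median log2 fold change was -3.67, and the summed FPKM of all 14 was 1442 to 1747 in Ctrl and 106 to 165 in Nar. Under median-of-ratios scaling the median was -2.57 and 3 of the 12 passed. No marker was at 0 in all libraries. Mapk13 and the neutrophil sum, most of which is S100a8, S100a9 and Retnlg, ran in the same order, Ctrl 1, Ctrl 3, Nar 3 and Nar 1. Among the tested markers Camp, Ltf and Ly6g did not follow that order.

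Of 10 monocyte markers, 9 were tested and 6 passed, all lower, against 39.6% of all tested genes, with summed FPKM of 370 to 463 in Ctrl and 103 to 159 in Nar. Of these 6, 1 had passed the filter only through Ctrl. The median log2 fold change was -1.73, and -0.70 after median-of-ratios scaling, where none of the 8 then tested passed in limma. Platelet markers summed to 787 and 2611 FPKM in Ctrl 1 and Ctrl 3, against 725 and 518 FPKM in Nar 1 and Nar 3. In limma 0 of 10 passed, and 1 was under 0.05 unadjusted, against 3036 of all 5339 tested genes. Mapk6, the platelet sum and the monocyte sum were each highest in Ctrl 3 and lowest in Nar 3. Mapk6 was higher in Nar 1 than in Ctrl 1, whereas both sums were lower. Most of the monocyte sum is Lyz2, and Csf1r, Ccr2, Cx3cr1, Ms4a6c, Fcgr1 and Cd68 were instead highest in Ctrl 1. No tested B cell marker (of 8) or T cell marker (of 6) passed in limma. Their median log2 fold changes of -0.38 and -0.61 turned to 0.67 and 0.50 under median-of-ratios scaling. Unadjusted, 0 and 2 of them were under 0.05, against 3036 of all 5339 tested genes. None of 16 erythroid markers other than haemoglobin passed either, with a median of 0.37 (1.46 under that scaling) and 0 under 0.05 unadjusted. Of 10 tested haemoglobin genes 2 passed, Hba-a1 and Hba-a2, both higher with Nar, as were 0.187% of all tested genes. The median log2 fold change of the 10 was -0.07. Under median-of-ratios scaling it was 1.04, and 4 passed, against 0.492% of all genes. Of 7 tested NK cell markers 2 passed, both lower, against 39.6% of all tested genes, and 1 of the 2 had passed the filter only through Ctrl. Of the 7, 4 were under 0.05 unadjusted, near the share over all tested genes (3036 of 5339). The 7 had a median log2 fold change of -1.24 (-0.30 under median-of-ratios scaling). The part of cell composition in the members' differences was not tested.

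**Figure D4:**
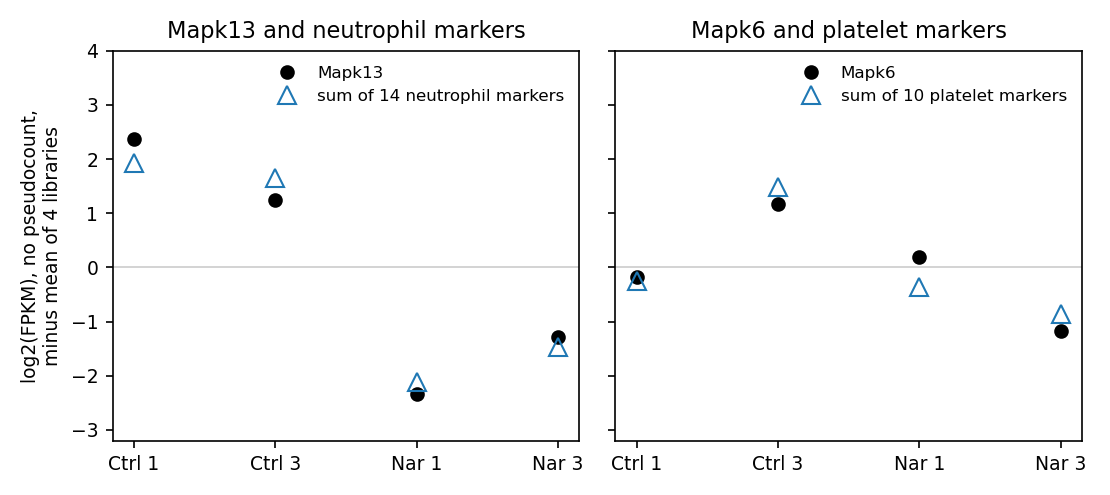
Log2 FPKM (no pseudocount) in each library, minus its mean over the 4 libraries (y axis), for Mapk13 with the sum of 14 neutrophil markers (left) and Mapk6 with the sum of 10 platelet markers (right); both pairs were chosen for display after their values were seen. Mapk13 and the neutrophil sum were high in both Ctrl libraries and low in both Nar libraries, while Mapk6 and the platelet sum were both highest in Ctrl 3 and lowest in Nar 3.

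The tested genes whose profile over the 4 libraries lay nearest to each member were also identified, by the root mean square difference of centred log2(FPKM + 0.1). For Mapk13 they were Anxa1 (0.116) and Pglyrp1 (0.126), and 13 genes lay within 0.2. For Mapk14 they were Capza1 (0.0912) and Numb (0.102), with 27 genes within 0.2. Mapk3 lay nearest to Prkab1 (0.0621) and Prrg2 (0.0686), and Mapk6 to Gnaz (0.0369) and Pkd1l3 (0.0542), with 83 and 95 genes within 0.2. Mapk13 thus had the fewest close neighbours of the 4, and with 4 libraries such likeness is a description alone.

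The genes that act above and below the MAP kinases were examined in 6 lists holding 78 genes, of which 45 were tested. With limma, 22 of the 45 were lower with Nar at an adjusted p-value under 0.05 and 0 were higher. At this threshold 39.6% of all tested genes were lower. Their median log2 fold change was -1.13, against -1.07 for all tested genes, so that the pathway as a whole lay near the background. The filter on low values favours genes that were high in Ctrl, as 18 of the 45 genes, and 13 of the 22 called, had a Nar mean under 0.5 FPKM and passed it through their Ctrl libraries. With no filter, no pathway gene passed in limma. No pathway gene passed under median-of-ratios scaling or when Ctrl 1 or Ctrl 3 was left out, and 2 and 4 passed without Nar 1 and Nar 3.

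The upstream tiers are given in turn. Of the MAP kinase kinase kinases, which open the relay, 6 of 7 tested genes were lower (adjusted p under 0.05), against 39.6% of all tested genes, with a median log2 fold change of -1.63. With haemoglobin removed 1 of the 7 passed, and under median-of-ratios scaling none passed. Of these 6, 3 passed the filter only through Ctrl, and 19 of the 20 listed genes have values. Map3k1, which acts mainly towards JNK, had the highest log2 fold change of the list, -0.85 (limma adjusted p = 0.0867). It was listed at 1.17 and 0.81 FPKM in Ctrl and at 0.56 and 0.44 FPKM in Nar. Of the MAP kinase kinases, the middle tier, 1 of 5 tested genes passed, with a median of -0.74 that turned to 0.38 under median-of-ratios scaling, where 4 were tested. This was Map2k7, an activator of JNKs, at 0.87 and 1.28 FPKM in Ctrl and 0.51 and 0.34 FPKM in Nar (log2 fold change -1.16, adjusted p = 0.0442). It passed the filter only through Ctrl, and no gene of this list passed with a pseudocount of 1, TPM, limma without trend, haemoglobin removed, median-of-ratios scaling, no filter or any 1 library left out. Map2k2, an activator of ERKs, was listed at 4.86 and 9.21 FPKM in Ctrl and at 6.61 and 5.82 FPKM in Nar, so its groups overlapped (log2 fold change -0.11). Whether the tiers differ from each other was not tested.

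Scaffolds and adaptors, which hold kinases of the relay together, gave 0 calls in limma among 5 tested genes. In the same fit 3036 of all 5339 tested genes were under 0.05 unadjusted, as were 3 of these 5. Their log2 fold changes ran from -1.18 for Tab2 to 0.04 for Tab3, both partners of the kinase TAK1. Among the kinases that MAP kinases activate, 4 of 7 tested genes passed at an adjusted p of 0.05, all lower, against 39.6% of all tested genes, and 2 of the 4 had passed the filter only through Ctrl. The lowest log2 fold change of the list was that of Mknk1, a kinase of the cap-binding factor eIF4E (log2 fold change -1.74, adjusted p = 0.016), and the highest that of the related Mknk2 (log2 fold change -0.63, adjusted p = 0.246).

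Of the transcription factors phosphorylated by MAP kinases, 7 of 14 tested genes passed at an adjusted p of 0.05, all lower, against 39.6% of all tested genes, and 4 of the 7 had passed the filter only through Ctrl. Ets2 had the lowest log2 fold change of the list, -2.95 (limma adjusted p = 0.00436), and passed the filter only through its Ctrl libraries. It was listed at 1.68 and 2.72 FPKM in Ctrl and at 0.25 and 0.14 FPKM in Nar. Jund, a member of the AP-1 complex, lay at 26.43 and 26.31 FPKM in Ctrl and 26.6 and 22.89 FPKM in Nar, with overlapping groups (log2 fold change -0.10, adjusted p = 0.869). The 2 factors thus lay at opposite ends of the list.

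The MAP kinase phosphatases, which remove the activating phosphates, gave 4 calls among 7 tested genes, all lower, against 39.6% of all tested genes, with a median log2 fold change of -1.56. Of these 4, all but Dusp1 had passed the filter only through Ctrl. Dusp1, a phosphatase of p38 and JNK that is itself induced by stress signals, was listed at 31.63 and 33.39 FPKM in Ctrl and at 1.06 and 3.03 FPKM in Nar (log2 fold change -4.10, adjusted p = 0.00439). In Ctrl blood its level exceeded that of every MAP kinase member, while in Nar 1 and Nar 3 it lay below Mapk14 in the first and above it in the second. Dusp8 had the highest log2 fold change of the list, 0.45 (limma adjusted p = 0.345). It was listed at 0.43 and 0.53 FPKM in Ctrl and at 0.53 and 0.89 FPKM in Nar.

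**Figure D5:**
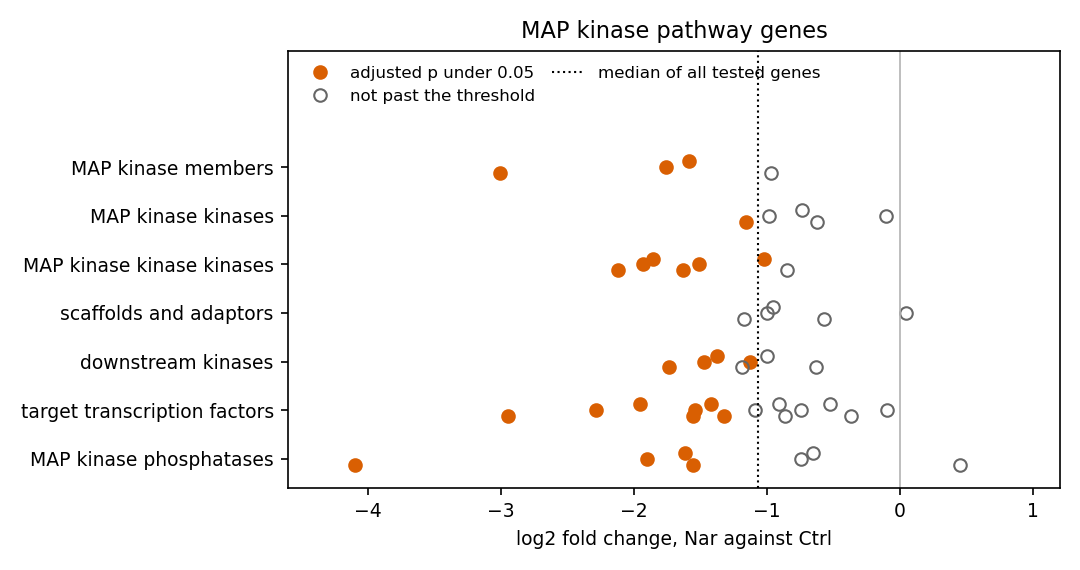
Log2 fold change of Nar against Ctrl (x axis) for each tested MAP kinase member and each tested gene of the 6 pathway lists (rows; points are spread vertically for legibility); filled points passed an adjusted p of 0.05 in limma and the dotted line is the median of all tested genes, -1.07. Dusp1 at -4.10, Mapk13 at -3.01 and Ets2 at -2.95 lie furthest left, and scaffolds and adaptors hold no filled point.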

How the data were processed

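Blood RNA of 2 Ctrl and 2 Nar libraries was compared, with groups and replicate numbers from the sample titles. FPKM values for each gene, with 2 decimals, are what the authors deposited. The study's methods name bowtie-2 alignment to reference gene sequences, whereas the submitters' processing notes name TopHat2, Cufflinks and GRCm38; versions and annotation are not given in the sources used here. Read depth is unknown and no counting error could be attached.

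Values were tested as log2(FPKM + 0.1) over genes with a mean of at least 0.5 FPKM in limma 3.58.1 (R 4.3.3, lmFit and eBayes with trend), with Benjamini-Hochberg adjustment over all tested genes; the steps were tested on simulated data. Class means were planned over tested members, but no JNK gene was tested, so comparisons with JNK use all members. The members and gene lists were chosen with earlier results of these data known. Named genes were the members, the lowest and highest log2 fold change of each pathway list, and the 2 nearest genes of each tested member. A gene that this rule names is not reported here. Promoters came from RefSeq (GRCm38.p6) and coding sequences from GENCODE M21. Figures were drawn with matplotlib 3.10.9.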

Additional observations from a re-analysis of the deposited data

How the results depend on the processing

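The alternatives were pseudocounts of 1 and 0.01, no filter, a mean of at least 5 FPKM, TPM, removal of haemoglobin genes, median-of-ratios scaling, limma without trend, a replicate block and each library left out. A crossed block was added after the data were seen. Why a value changed was not tested.

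Against 2123 genes, 3 members and 22 pathway genes past the threshold, no filter gave 0, 0 and 0 in limma (4978 genes under 0.05 unadjusted), a mean of at least 5 FPKM gave 117, 0 and 1, with 2 members tested, haemoglobin removal gave 283, 1 (Mapk13) and 3, and median-of-ratios scaling gave 25, 0 and 0 (718 unadjusted). With 1 library left out they ran from 0 to 259, 0 to 1 and 0 to 4 in limma, the lone library of a group being assumed to vary like the others. The labels do not tie same-numbered libraries, whose deviations correlated at -0.15 across 5339 genes. The replicate block gave 1815, 2 and 22, with Mapk3 lost (adjusted p = 0.0978), and the crossed block gave 3233, 4 and 26.

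Under median-of-ratios scaling the log2 fold change of Mapk6 reversed to 0.12. The p38 minus ERK difference was -0.26 with a pseudocount of 1. With 1 library left out, the Mapk14 to Mapk9 difference ran from -1.32 to 0.15 and that of Mapk13 to Mapk14 from -2.25 to -0.25. Unknown depth limits Mapk7, Mapk8, Mapk9 and Mapk11.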
